A study of Mus musculus with 37 samples.

Results

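Liver RNA of male mice with the Y665H substitution in STAT5B was compared with that of wild type (WT) males. Samples were chosen by the genotype and sex in their titles, which gave 4 Y665H and 6 WT males, 10 of the 37 samples of the series, and counts of the Y-linked gene Ddx3y were above 0 in all 10. Y665H replaces a tyrosine of STAT5B by histidine, in the SH2 domain according to the series title. All 10 mice were of the C57BL/6 strain and 2 months old, and the sources used here do not say whether the substitution was on 1 allele or on both. The other groups of the series, used here only for contrast, were 9 males with phenylalanine at the same position (Y665F) and females of the 3 genotypes. A substitution leaves no trace in a count per gene, so the genotype labels were not checked by these data. The labels also do not say whether the mice of a group came from separate litters, so p-values measure only the spread between these samples.

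STAT5B is a transcription factor that is phosphorylated when growth hormone binds its receptor on the hepatocyte. It then forms dimers through its SH2 domain and switches on genes such as Igf1, Socs2 and Cish. In rodents the pulses of growth hormone in males and its steadier level in females give liver many genes with different levels in the sexes. Cholesterol synthesis is set mainly by SREBP2 (gene Srebf2), a membrane-bound factor that is cut loose when sterols in the endoplasmic reticulum are low and that then binds promoters together with NF-Y.

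Total RNA after removal of ribosomal RNA was sequenced, and each file holds raw counts per gene. Counts assigned to genes came to between 49141951 and 69038724 in the WT males and between 50644147 and 66826156 in the Y665H males, so depth was similar. The share of reads outside annotated genes ran from 17.31% to 19.84% in the 6 WT males and from 11.85% to 15.9% in the 4 Y665H males, without overlap. Its part in the results was not tested beyond a fit that holds it constant. An Illumina and a New England Biolabs protocol are both described, with no word on which libraries each served, so any kit that followed genotype cannot be told apart from it. Of 12 hepatocyte markers 0 were called with edgeR or with DESeq2, and 1 had an unadjusted p under 0.05 in edgeR. Alb, the serum albumin gene, lay between 51783 and 60594 CPM (counts scaled to library size) in WT and between 43802 and 62347 CPM in Y665H males. Within the Y665H group the libraries were not alike. On the first principal component of the 10 libraries, which held 33.3% of the variance, WT males lay between -21.18 and -9.69, Y665H replicates 1 and 4 at 10.51 and 13.53, and replicates 2 and 3 at 35.98 and 30.34. Results that rest on replicates 2 and 3 are therefore also given without them, a choice made after seeing the data. The 6 WT libraries in turn fell into 3 pairs (replicates 1 and 5, 2 and 4, 3 and 6), whose deviations from the group mean correlated at 0.237 to 0.293 while every other WT pair was below 0; the labels do not say what the pairs share. If the livers of a pair are not independent, p-values over 6 WT livers are too small. List counts are therefore also given from a fit with the WT males summed in these pairs to 3 values (the paired WT fit), likewise chosen after seeing the data.

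Of 15152 genes tested with edgeR's quasi-likelihood test, 1273 (8.40%) differed between Y665H and WT males at a Benjamini-Hochberg adjusted p under 0.05 (a gene past this threshold is a called gene). Of these, 791 (5.22% of the genes tested) were higher and 482 (3.18%) lower in Y665H males, which made 62.1% of the calls higher. For 1233 of them the WT mean had all 4 Y665H libraries on one side, for 914 the groups did not overlap, as they did not for 12.5% of all genes tested, and 182 reached a log2 fold change of 1 in either direction. Over all genes the median log2 fold change was 0.0062. The count was 2186 with only the 10 libraries in the fit, of which 54.2% were higher, and 2012 with the 19 males, of which 52.2% were higher. It fell to 519 without Y665H replicate 3, to 644 without Y665H replicate 2, to 799 without WT replicate 5 and to 263 without Y665H replicates 2 and 3, and 207 of the 1273 genes were still called in the last of these fits. With the share of reads in no gene held constant, 543 genes were called, 354 of them among the 1273. In the paired WT fit 265 were called, all of them among the 1273. There 70 of the 113 called genes named here lost their call, with adjusted p from 0.0505 to 0.193, while no log2 fold change of a named gene moved by more than 0.02.

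**Figure D1:**
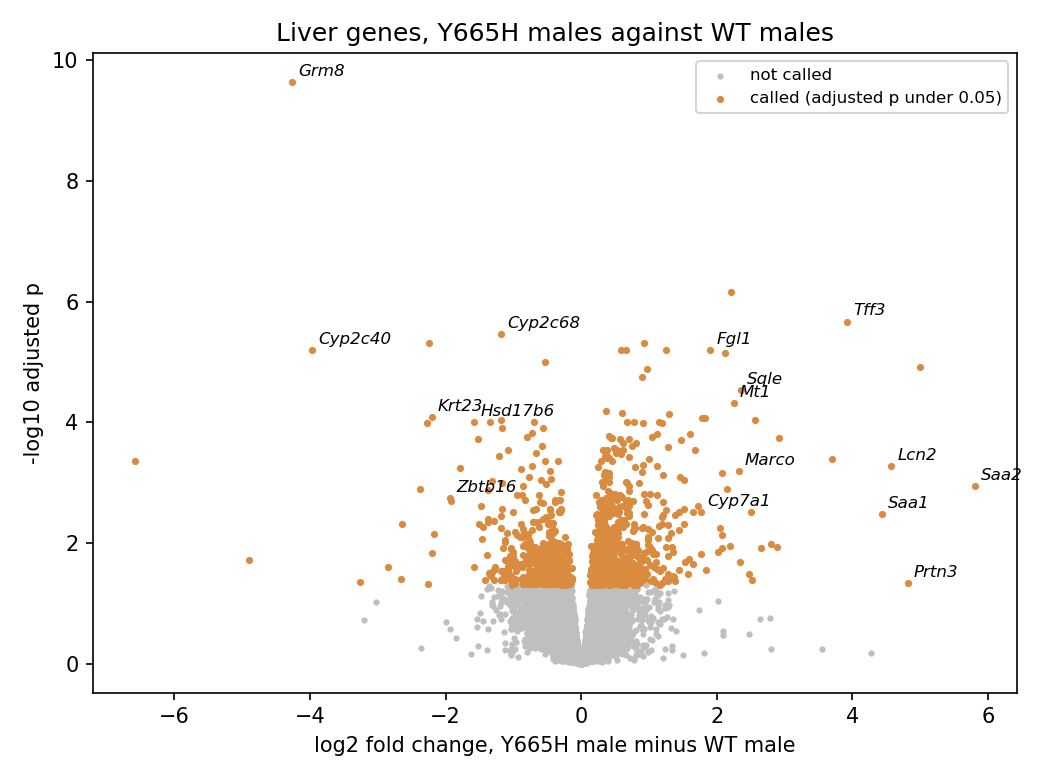
Each point is 1 of the 15152 genes tested, at its log2 fold change between Y665H and WT males (x axis) and the -log10 of its adjusted p (y axis); the 1273 called genes are orange. Grm8 has the lowest adjusted p on the left, and the serum amyloid genes Saa2 and Saa1 lie far to the right at moderate p.

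Most genes of cholesterol synthesis rose in Y665H males. All 21 members of the list had a log2 fold change above 0, with a median of 0.93, and 15 were called higher and 0 lower, against 5.22% of all genes called higher. In 18 of the 21 every Y665H library lay above every WT library, which held for 6.75% of all genes. Sqle, squalene epoxidase, an early control point of the sterol branch, had the largest change of the list, and lies at chromosome 15, 59315092 to 59331193 (GRCm38.p6, mm10). Its level was 97.1, 98.7, 96.4 and 67.0 CPM in Y665H replicates 1 to 4, and its lowest, median and highest WT values were 15.8, 17.4 and 19.6 CPM. Every Y665H liver thus held more than 3 times the RNA of the highest WT liver (log2 fold change 2.36, SE 0.34, adjusted p 2.97e-05).

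RefSeq windows before the start site were available for 16 of the 21 genes, and 4 of them are shown because their genes had the lowest p among those 16 and moved together. Each line is the 250 bases before a RefSeq start on GRCm38.p6, 5′ to 3′ along the gene. The Hsd17b7 and Mvk lines run past the outer boundary of the gene (169969242 and 114444264). Their last bases therefore lie within it, the last box of Hsd17b7 among them. Capitals mark CCAAT, the core of the NF-Y box, or its reverse complement ATTGG.
Mvk, chr5:114444019-114444268, plus strand: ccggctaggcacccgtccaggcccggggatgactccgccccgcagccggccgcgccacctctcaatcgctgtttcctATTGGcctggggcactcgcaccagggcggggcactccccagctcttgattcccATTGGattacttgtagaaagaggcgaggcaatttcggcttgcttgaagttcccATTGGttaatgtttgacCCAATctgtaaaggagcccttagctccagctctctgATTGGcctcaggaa
Hsd17b7, chr1:169969206-169969455, minus strand: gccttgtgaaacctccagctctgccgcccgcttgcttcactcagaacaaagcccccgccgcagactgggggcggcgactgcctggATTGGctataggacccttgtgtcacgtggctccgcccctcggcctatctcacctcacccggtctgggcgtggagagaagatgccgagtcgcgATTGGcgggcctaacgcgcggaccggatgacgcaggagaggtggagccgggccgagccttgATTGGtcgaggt
Mvd, chr8:122443423-122443672, minus strand: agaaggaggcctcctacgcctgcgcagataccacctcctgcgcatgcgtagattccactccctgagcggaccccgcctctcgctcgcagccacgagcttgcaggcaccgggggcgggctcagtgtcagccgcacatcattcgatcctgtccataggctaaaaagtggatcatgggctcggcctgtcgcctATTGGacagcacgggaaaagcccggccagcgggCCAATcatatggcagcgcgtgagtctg
Msmo1, chr8:64733579-64733828, minus strand: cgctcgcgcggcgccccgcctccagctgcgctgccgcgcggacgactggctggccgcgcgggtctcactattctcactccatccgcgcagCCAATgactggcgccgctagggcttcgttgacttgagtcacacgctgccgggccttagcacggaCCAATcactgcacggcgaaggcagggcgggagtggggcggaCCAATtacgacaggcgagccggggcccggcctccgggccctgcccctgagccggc
The Mvk window held 5 such boxes, Hsd17b7 and Msmo1 held 3 each, and Mvd held 2. Searched on both strands, CCAAT was in the windows of 15 of the 16 genes, all but Acat2, and in 15 of their 19 windows (78.9%), against 33.8% of the 32851 windows of all genes. The sterol regulatory element TCACNCCAC was in 1 of the 19 (5.3%), that of Hmgcs1, against 1.1% of all windows. The STAT site TTCNNNGAA was also in 1 of the 19 (5.3%), that of Ebp, against 7.0% of all. Overlaps between motifs were not removed, and a match is only a run of letters.

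Called genes stood in every stretch of the pathway. At its start, Hmgcs1, which makes HMG-CoA, read 501, 427, 416 and 507 CPM in Y665H males, and WT males ran from 145 to 183 CPM with a median of 175.5 CPM (1.44 on the log2 scale, SE 0.33, adjusted p 0.00605). In the mevalonate steps, the kinase Mvk (log2 fold change 1.02, adjusted p 0.00156), Pmvk (0.77, adjusted p 0.0315, lost in 7 of the 10 fits without 1 library) and the decarboxylase Mvd (1.52, adjusted p 0.00277) rose. Mvd read 27.7, 20.6, 19.4 and 20.0 CPM, with WT males from 6.03 to 9.62 CPM and no overlap.

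The isoprenoid enzymes rose too: Idi1 by 1.29 and Fdps by 1.01 on the log2 scale (adjusted p 0.00839 and 0.0236). Fdft1, squalene synthase, rose by 0.98 (adjusted p 0.00239). Beyond lanosterol, the demethylating enzymes Cyp51 (1.02), Msmo1 (1.26) and Nsdhl (0.98), and the reductases Tm7sf2 (0.45), Hsd17b7 (0.93) and Dhcr7 (0.81) were all called. Msmo1 was highest in replicate 1, at 230 CPM against 154 to 171 CPM in the other Y665H males, and WT males did not pass 83.7 CPM. Acat2, Lss, Lbr, Ebp and Sc5d were not called, with log2 fold changes from 0.06 (Ebp) to 0.72 (Lss), and are named here to account for the list. No Y665H library carried the rise alone: averaged over the list, log2 CPM stood 1.066, 0.840, 0.843 and 0.869 above the WT mean in replicates 1 to 4, and between -0.108 and 0.129 in WT males. Without replicates 2 and 3, 9 of the 21 were called, and with the share of reads in no gene held constant 8 were. The paired WT fit called 7, among them Sqle, Mvk, Mvd, Fdft1, Msmo1 and Hsd17b7.

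**Figure D2:**
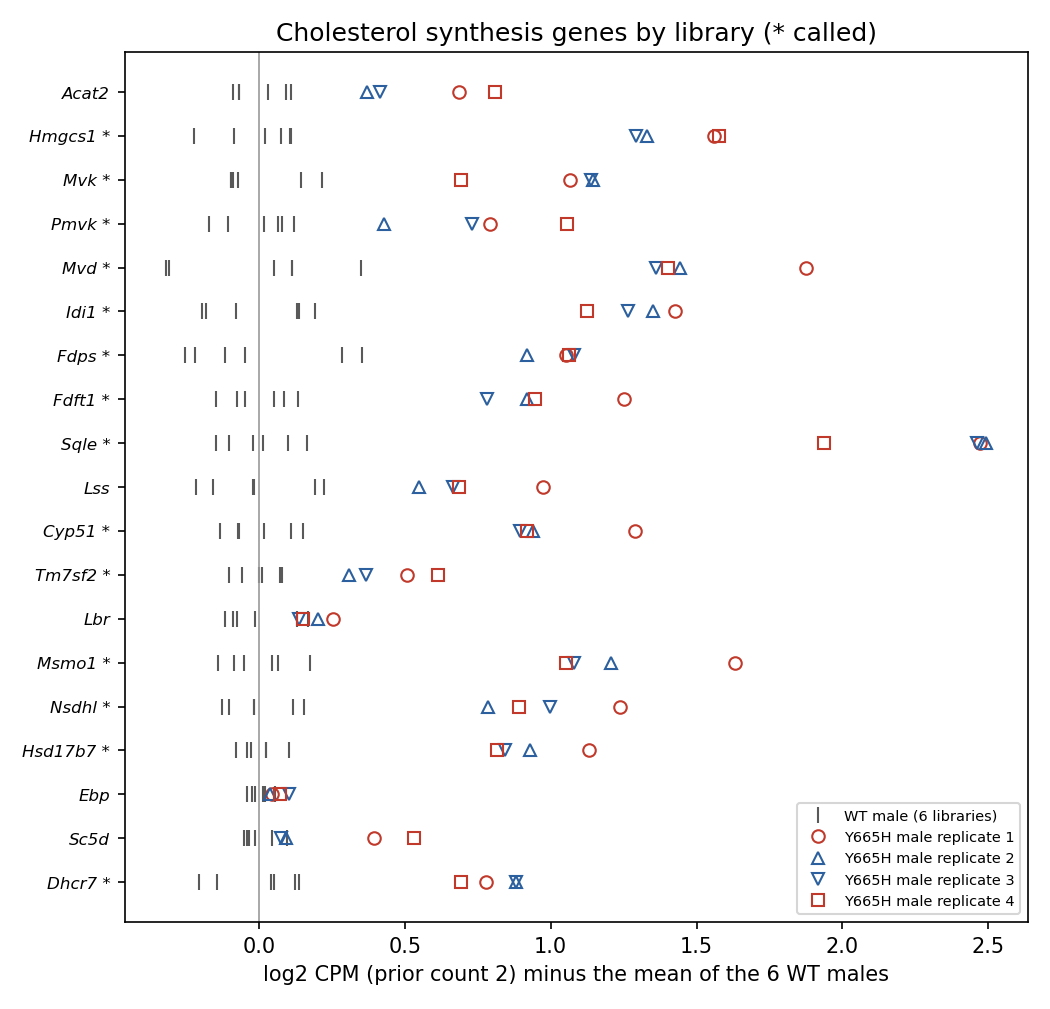
Each row is 1 of 19 genes of the cholesterol synthesis list in pathway order, and the x axis is log2 CPM (prior count 2) minus the mean of the 6 WT males; ticks are WT libraries and symbols the 4 Y665H libraries. Sqle lies farthest to the right, and Ebp is the member closest to 0.

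Of 21 genes of sterol sensing, uptake and export, 4 were called higher and 0 lower, against 5.22% of all genes called higher. Srebf2, which encodes the SREBP2 factor, read 98.4, 91.8, 90.3 and 84.5 CPM, above the WT range of 59.5 to 64.6 CPM in every liver (0.54 on the log2 scale, SE 0.12, adjusted p 0.00577). Tmem97, an endoplasmic reticulum protein bound by sterols, rose by 0.57 (adjusted p 0.000193). Nr1h2, an oxysterol receptor, rose by 0.22 (adjusted p 0.0196). Insig1 (0.13, adjusted p 0.715) and the sterol exporter Abcg5 (0.077, adjusted p 0.726) were not called. Only Tmem97 of the 4 was called without replicates 2 and 3, and only Tmem97 in the paired WT fit.

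Of 28 bile acid genes, 2 were called higher and 1 lower, near the 8.40% of all genes called in either direction. Cyp7a1, the rate-limiting enzyme of bile acid synthesis from cholesterol, read 86.3, 24.5, 216 and 57.5 CPM in Y665H males and 19.3, 21.2 and 44.2 CPM at the lowest, median and highest WT library (log2 fold change 1.77, SE 0.38, adjusted p 0.00313). Replicate 2 lay inside the WT range and replicate 3 at almost 5 times the highest WT value. Without replicate 3 the call was lost (adjusted p 0.104). Nr1h4, the bile acid receptor FXR, was called higher (0.28, adjusted p 0.0421) and Abcb11, the bile salt export pump, lower (-0.36, adjusted p 0.0308). The calls of Nr1h4 and Abcb11 were lost in the paired WT fit and without replicates 2 and 3 (adjusted p 0.376 and 0.0527 in the latter), while Cyp7a1 stayed called in both. Cyp8b1, which makes cholic acid, was not called (0.55, adjusted p 0.212).

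Of 22 genes of fatty acid and triglyceride synthesis, 2 were called lower and 0 higher by edgeR and by DESeq2 alike, against 3.18% of all genes called lower and 5.22% higher in edgeR, with 3 at an unadjusted p under 0.05 in each direction in edgeR. Those 2 were Lpin1, a phosphatidate phosphatase, at 137, 104, 132 and 152 CPM against 199 to 563 CPM, and Mlxipl, the carbohydrate-responsive factor ChREBP, at 261, 243, 255 and 267 CPM against 343 to 409 CPM. All Y665H values of both genes were below all WT values (log2 fold changes -1.28 and -0.59, adjusted p 0.0248 and 0.0164). With the share of reads in no gene held constant both calls were lost, at -0.96 (adjusted p 0.181) for Lpin1 and -0.24 (adjusted p 0.401) for Mlxipl, and both were lost in the paired WT fit (adjusted p 0.0937 and 0.092) and without replicates 2 and 3 (0.25 and 0.165). Fasn (0.12, adjusted p 0.869) and Scd1 (0.0078, adjusted p 0.994) were not called, and their Y665H values spread widely. Scd1, a desaturase, read 6426, 7811, 9324 and 18118 CPM in replicates 1 to 4, the lowest and the highest of all 10 livers among them. Of 30 genes of fatty acid oxidation and ketone formation 0 were called by edgeR or DESeq2, while 25 had a fold change above 0 and 5 an unadjusted p under 0.05 in edgeR, all higher. Their mean stood 0.330 and 0.462 above the WT mean in replicates 1 and 4 and -0.122 and -0.292 from it in replicates 2 and 3, and 2 were called higher without replicates 2 and 3. Cpt1a, the entry step of oxidation, stood at 0.32 over all 4 livers (adjusted p 0.151). Of 25 genes of lipid uptake, droplets and lipoproteins only Lipc, hepatic lipase, was called (-0.33, adjusted p 0.0256, and not called without replicates 2 and 3 or in the paired WT fit, at adjusted p 0.291 and 0.11), against 8.40% of all genes, while the fatty acid carrier Cd36 was not (0.31, adjusted p 0.532).

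Acute phase genes, which hepatocytes switch on under inflammatory cytokines, held the gene with the largest rise among all genes tested, Saa2, and 2 of the 4 Y665H livers were far above the others for many of them. Of 35 members 16 were called higher and 0 lower, against 5.22% of all genes called higher, with a median log2 fold change of 0.35 (0.0062 over all genes). Saa2, a serum amyloid A gene at chromosome 7, 46751833 to 46754313, read 646 and 500 CPM in replicates 2 and 3 and 7.85 and 11.5 CPM in replicates 1 and 4. The WT libraries read 2.96 CPM at the lowest, 4.09 CPM at the median and 9.77 CPM at the highest, so replicate 1 lay inside the WT range (log2 fold change 5.81, SE 1.12, adjusted p 0.00114). Its neighbour Saa1 read 27.2, 907, 694 and 54.0 CPM against 11.5 to 29.0 CPM (4.44, adjusted p 0.00335). Saa1 and Saa2 are near copies, and how reads were split between them is uncertain.

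Lcn2, the iron-chelator carrier lipocalin 2, read 3.95, 81.0, 91.0 and 3.94 CPM against 1.28 to 2.86 CPM (4.57, SE 0.82, adjusted p 0.000534). The same 2 livers stood out for Orm2, orosomucoid, at 48.6 and 53.6 CPM against 6.13 and 7.82 CPM in replicates 1 and 4. They also did for haptoglobin, Hp, at 5201 and 5488 CPM against 2651 and 2406 CPM, where WT males read 1763 to 1922 CPM. Fgl1, a fibrinogen-like hepatocyte protein, was high in all 4 (183, 400, 421 and 114 CPM against 64.1 to 85.8 CPM; log2 fold change 1.9001, SE 0.25, adjusted p 6.44e-06). Hpx, Itih4, Serpina3n, Saa3, Lrg1, Tifa, Cd14 and the factor Cebpd were the other called members apart from Mt1 and Mt2, with log2 fold changes from 0.48 (Cebpd) to 1.35 (Lrg1). The mean of the list stood 0.122, 1.280, 1.340 and 0.180 above the WT mean in replicates 1 to 4. Without replicate 3, 9 members were called, and without replicates 2 and 3, 4 were: Mt1, Mt2, Fgl1 and Cd14. The paired WT fit called 7: Saa2, Lcn2, Hp, Itih4, Fgl1, Mt1 and Mt2. Without the 2 livers Saa2 stood at 0.89 (adjusted p 0.756) and Lcn2 at 1.06 (adjusted p 0.62).

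**Figure D3:**
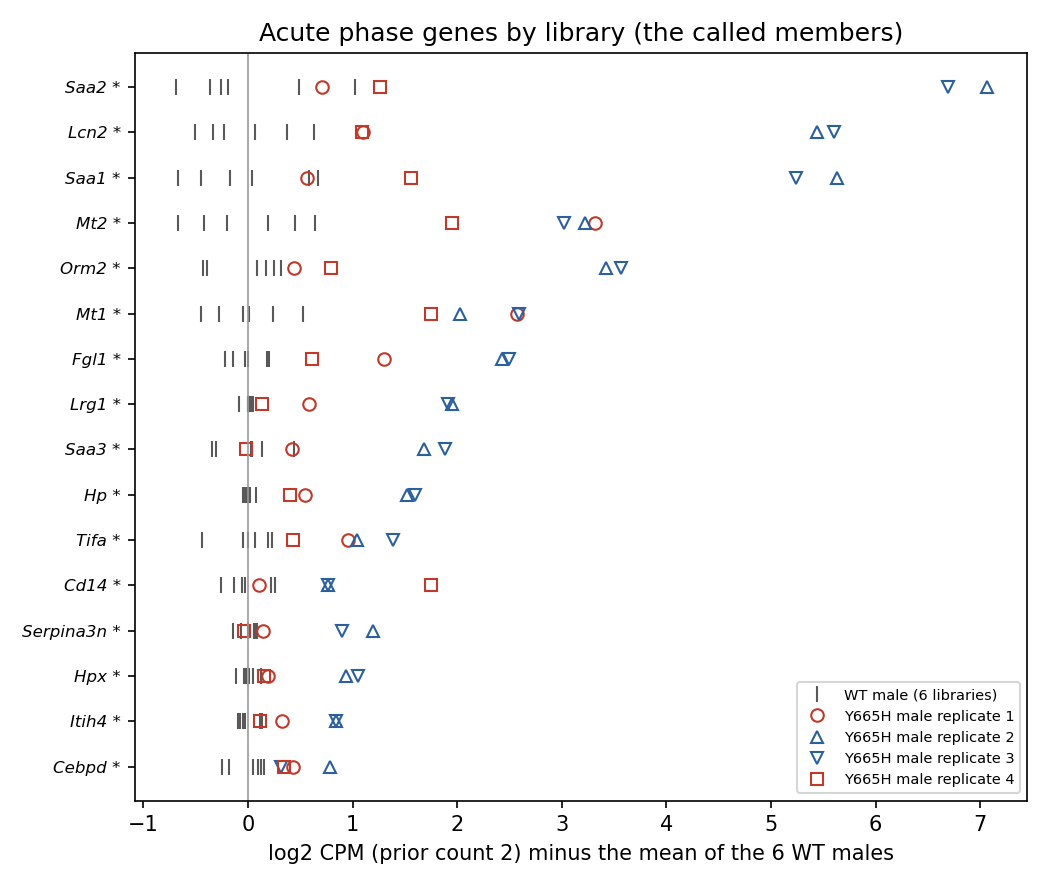
Rows are the 16 called acute phase genes ordered by fold change, and the x axis is log2 CPM (prior count 2) minus the mean of the 6 WT males. Y665H replicates 2 and 3 (blue triangles) lie far to the right for Saa2, Saa1, Lcn2 and Orm2, while replicates 1 and 4 (red) lie near the WT ticks; for Mt1 and Mt2 all 4 lie to the right.

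The metallothioneins Mt1 and Mt2, small metal-binding proteins encoded side by side on chromosome 8 (94178883 to 94180327 and 94172618 to 94173567), were high in every Y665H liver. Mt1 read 19.6, 13.3, 19.8 and 11.0 CPM against 2.38 to 4.70 CPM, and Mt2 11.5, 10.7, 9.34 and 4.44 CPM against 0.689 to 1.77 CPM (log2 fold changes 2.25 and 2.93, adjusted p 4.78e-05 and 0.00018). Both stayed called in all alternative fits run, among them the fit without replicates 2 and 3.

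Of 42 interferon response genes 11 were called higher and 0 lower, against 5.22% of all genes called higher, with a median of 0.30, and 36 of the 42 had a fold change above 0. The immunoproteasome subunits Psmb8 (0.71, adjusted p 0.00038) and Psmb9 (0.66, adjusted p 0.00203) and the peptide transporter Tap1 (0.49, adjusted p 0.00897) had the lowest p of the list. Psmb8 read 23.4, 29.4, 29.1 and 24.5 CPM against 13.7 to 18.4 CPM. Irf7, a factor that drives interferon genes, read 35.1, 55.2, 45.7 and 31.2 CPM against 24.8 to 31.1 CPM (0.61, adjusted p 0.0113), highest in replicates 2 and 3. Usp18, Oas1a, Ifi27l2a, Irgm1, Xaf1, Dhx58 and Parp14 were the other called members (0.34 to 0.77). The list lost calls with many single libraries: 6 were left without WT replicate 2 or without WT replicate 3, 5 without WT replicate 4 or without Y665H replicate 3, and 3 without Y665H replicate 2. Without Y665H replicates 2 and 3 edgeR called 0 members, 3 of them higher and 1 lower at an unadjusted p under 0.05 (DESeq2 was not run without these libraries), and 2 were called with the share of reads in no gene held constant. The paired WT fit called 2, Psmb8 and Psmb9. Of 11 antigen presentation genes H2-D1 alone was called (0.28, adjusted p 0.0308), near the 8.40% of all genes, and its call was lost in 5 of the 10 fits without 1 library and without replicates 2 and 3 (adjusted p 0.419).

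Outside these lists, Tff3, a secreted trefoil peptide, read 2.42, 9.48, 9.23 and 1.05 CPM against 0.164 to 0.714 CPM (log2 fold change 3.93, SE 0.46, adjusted p 2.15e-06). Slc13a5, the citrate importer of hepatocytes, read 1.602, 3.848, 6.984 and 0.883 CPM against 0.488 to 0.603 CPM (2.56, adjusted p 9.23e-05), and lost its call without replicates 2 and 3 (adjusted p 0.139). Crybb3, a crystallin, followed the same order of livers, at 1.01, 3.73, 4.17 and 0.594 CPM against 0.300 to 0.572 CPM (2.51, adjusted p 0.00304), and also lost its call without them (0.95, adjusted p 0.536). Tff3 stayed called (2.25, adjusted p 0.00801). For these genes replicates 2 and 3 were again the highest, but the Y665H and WT groups did not overlap.

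Some markers of other liver cells were called as well, and in whole tissue a change in the number of cells of a type and in RNA per cell cannot be told apart. Of 14 Kupffer cell and macrophage genes 13 had a fold change above 0 and 3 were called higher, against 5.22% of all genes: the scavenger receptor Marco and the complement genes C1qb and C1qc. This count was 7 with DESeq2 and 8 with only the 10 libraries in the fit, and 1 without WT replicate 2 or 4, without Y665H replicate 3 or 4, with the share of reads in no gene held constant or in the paired WT fit. It was 5 without WT replicate 1. Marco read 2.29, 2.67, 4.30 and 18.6 CPM against 0.820 to 1.82 CPM (2.32, SE 0.43, adjusted p 0.000654), with replicate 4 far above the rest. Without replicate 4 its log2 fold change was 1.14 (adjusted p 0.0497), and without replicates 2 and 3 it was 2.89. The summed level of the 14 genes was 417.3 to 541.5 CPM in Y665H and 311.2 to 440.7 CPM in WT males, and the defining marker Clec4f was not called (0.29, adjusted p 0.371). Only Marco stayed called without replicates 2 and 3. Of 10 monocyte genes Itgam (0.73) and Lyz2 (0.68) were called higher, with Lyz2 at 63.5 CPM in replicate 4 and 32.2 to 36.8 CPM in the other Y665H livers, against 5.22% of all genes called higher. Both calls were lost without Y665H replicate 4 (adjusted p 0.11 and 0.252), with the share of reads in no gene held constant (0.0502 and 0.264) and in the paired WT fit (0.092 and 0.146).

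Neutrophil genes were at low levels. Prtn3, proteinase 3 of neutrophil precursors, read 0.265, 1.95, 4.75 and 0.228 CPM against 0.0164 to 0.113 CPM (4.82, SE 1.55, adjusted p 0.0464), and lost its call in 8 of the 10 fits that each left out 1 library. Elane, neutrophil elastase, was called too (2.53, adjusted p 0.0408) and stayed at or below 0.200 CPM in every liver. These were the 2 called of 9 tested genes of neutrophil precursors, against 5.22% of all genes called higher. DESeq2 called 5, while without replicates 2 and 3 edgeR called 0, with 1 higher at an unadjusted p under 0.05, and neither gene was called in the paired WT fit (adjusted p 0.173 and 0.108). Of 8 mature neutrophil genes Il1b alone was called (1.29, adjusted p 0.00498, 0.0967 without replicates 2 and 3 and 0.0519 in the paired WT fit), against 5.22% of all genes called higher. Of 16 T and NK cell genes 3 were called, all lower (Klrb1c, Cd2 and Lck, -0.77 to -1.45), at levels under 1 CPM, against 3.18% of all genes called lower. All 3 calls were lost without replicates 2 and 3 (adjusted p 0.139 to 0.309), and those of Cd2 and Lck in 8 and 7 of the 10 fits without 1 library and in the paired WT fit. The plasma cell gene Jchain, the joining chain of antibodies, read 2.79, 2.63, 4.08 and 2.56 CPM against 0.590 to 1.20 CPM (1.61, adjusted p 0.000159), and Mzb1 was also called (0.97, adjusted p 0.0191). Jchain stayed called without replicates 2 and 3 and in the paired WT fit, while Mzb1 did not (0.67, adjusted p 0.351, and 0.96, adjusted p 0.0792). Of 11 endothelial genes edgeR called 0, with 7 lower at an unadjusted p under 0.05, and DESeq2 called 1 lower. Without Y665H replicates 2 and 3 edgeR again called 0, and 0 were lower at an unadjusted p under 0.05. Over all 4 livers 6 of them lay below every WT library in all 4 Y665H livers, which 5.74% of all genes did, and their summed level was 363.9 to 484.5 CPM against 503.3 to 556.1 CPM. Summed levels of the other lists, WT first and Y665H second, were 30.27 to 46.66 and 44.07 to 77.44 CPM for monocytes, and 3.573 to 5.335 and 4.394 to 7.854 CPM for mature neutrophils. They were 8.706 to 9.985 and 9.787 to 15.75 CPM for neutrophil precursors, where 1 listed gene was at 0 in all 10 livers. T and NK cell genes summed to 5.865 to 9.843 and 4.871 to 8.344 CPM, and B and plasma cell genes to 4.558 to 7.833 and 6.432 to 9.909 CPM. The part of these cell types in the other results was not tested.

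The lowest p belonged to Grm8, a glutamate receptor gene at chromosome 6, 27275121 to 28135146. It read 0.0882, 0.129, 0.236 and 0.107 CPM in Y665H males and 1.02, 2.89 and 3.71 CPM at the lowest, median and highest WT library (log2 fold change -4.26, SE 0.34, adjusted p 2.28e-10). All 4 Y665H livers lay far below all WT livers, and the call held in every alternative fit run. Grm8 is known mainly from nerve cells, and its level was low even in WT liver.

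A run of cytochrome P450 genes on chromosome 19 fell together. Cyp2c67, Cyp2c68, Cyp2c40 and Cyp2c69 are consecutive among the tested Cyp2c genes there, from 39608844 to 39886769 on GRCm38.p6, and all 4 were called lower. Cyp2c40 read 1.06, 0.172, 0.181 and 0.426 CPM against 5.27 to 10.6 CPM (log2 fold change -3.97, SE 0.51, adjusted p 6.44e-06). Cyp2c68 read 93.3, 46.9, 49.5 and 80.8 CPM against 135 to 165 CPM (-1.18, SE 0.14, adjusted p 3.48e-06), and Cyp2c67 186, 118, 115 and 153 CPM against 232 to 296 CPM (-0.90, adjusted p 0.00801). Cyp2c69 read 0.544, 0.201, 0.145 and 0.198 CPM against 1.62 to 2.67 CPM (-2.85, adjusted p 0.025), and lost its call in 3 of the 10 fits without 1 library and in the paired WT fit. The tested Cyp2c genes on either side were not called: Cyp2c38 stood at -0.40 (adjusted p 0.528) and Cyp2c39, whose span holds Cyp2c38 and ends closest to the run, at -0.29 (adjusted p 0.513) on one side, and Cyp2c37 at -0.37 (adjusted p 0.225) on the other. These neighbours were chosen for their position. These genes are near copies of each other, so how reads were shared among them is uncertain.

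Of 27 cytochrome P450 and drug metabolism genes 8 were called lower and 0 higher, against 3.18% of all genes called lower, with a median of -0.23. Beside Cyp2c67 and Cyp2c68 these were Cyp2c44, Cyp2d22, Cyp2d26, Cyp2f2, Cyp3a59 and Nr1i2, the receptor PXR that senses drugs and steroids. Cyp2f2, an enzyme of periportal hepatocytes, read 793, 1161, 972 and 1010 CPM against 1339 to 1730 CPM, without overlap (-0.71, adjusted p 0.00286). Nr1i2 read 61.9, 56.3, 52.1 and 60.3 CPM against 73.8 to 85.6 CPM (-0.45, adjusted p 0.00655). Replicates 2 and 3 were lowest: the mean of the list stood 0.028, -0.518, -0.414 and -0.125 from the WT mean in replicates 1 to 4. Without those 2 livers Cyp2c68 and Cyp2f2 were still called, and in the paired WT fit those 2 and Cyp2c44.

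The remaining genes with the largest falls had varied roles. Hsd17b6, an enzyme of androgen metabolism, read 123, 50.3, 42.9 and 114 CPM against 172 to 304 CPM (log2 fold change -1.58, adjusted p 9.98e-05). Zbtb16, a zinc finger repressor induced by glucocorticoids, read 17.4, 36.2, 34.2 and 23.9 CPM against 83.3 to 128 CPM (-1.93, adjusted p 0.00179). Etnppl, a phospholyase of phosphoethanolamine, fell by 1.34 on the log2 scale (adjusted p 9.98e-05). Every Y665H liver was below every WT liver for these 3 genes.

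Ugt2b38 (-2.28, adjusted p 0.000101), a glucuronidating enzyme, Ptgds (-2.38, adjusted p 0.00129), a prostaglandin synthase, and Krt23 (-2.21, adjusted p 8.21e-05), a keratin, fell as well. Adgrf1, an adhesion receptor (-1.52), Slc13a2, a dicarboxylate carrier (-1.48), and Spata3 (-1.37; -1.05, adjusted p 0.135, without replicates 2 and 3, and -0.89, adjusted p 0.16, with the share of reads in no gene held constant) completed the 12 lowest called genes of at least 1 CPM, with Cyp26b1, which breaks down retinoic acid. Cyp26b1 read 8.99, 0.603, 0.254 and 2.92 CPM against 3.98 to 21.6 CPM, an overlap with WT, and was not called in 7 of the 10 fits without 1 library (-2.26, adjusted p 0.0478).

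Genes of urea formation and amino acid breakdown fell in part: of 25 members 7 were called lower, against 3.18% of all genes, and 1 higher. Cps1, the first enzyme of the urea cycle, read 5552, 5085, 5006 and 4569 CPM against 5882 to 7319 CPM (-0.39, adjusted p 0.0337). Otc (-0.33) and Asl (-0.43) of the same cycle, glutaminase Gls2 (-0.53) and the histidine-degrading Hal (-0.61) were called as well. The serine dehydratases Sds and Sdsl fell by 0.88 and 0.46 (adjusted p 0.00158 and 0.00713), and Sds read 115, 119, 135 and 153 CPM against 208 to 290 CPM. Asns, which makes asparagine, was the member called higher (1.65, adjusted p 0.0224), at 2.94, 4.92, 5.59 and 0.928 CPM against a wide WT range of 0.525 to 2.65 CPM. Its call was lost without replicates 2 and 3 (0.76, adjusted p 0.568) and in the paired WT fit (adjusted p 0.109). The count of lower calls was 4 without Y665H replicate 2 and 3 without Y665H replicate 3, Hal, Sds and Sdsl being called without both. The paired WT fit called 2, Hal and Sds.

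Among the stress lists 4 of 14 NRF2 target genes, which answer oxidative stress, were called, against 8.40% of all genes called in either direction. Txnrd1 (0.26, adjusted p 0.00527) and Srxn1 (0.41, adjusted p 0.000961) were called higher and the glutathione transferases Gsta2 (-1.33) and Gsta4 (-0.52) lower. Gsta2 read 10.3, 6.49, 4.54 and 21.6 CPM against 19.2 to 35.6 CPM, so replicate 4 lay inside the WT range, and its call was lost in 6 of the 10 fits without 1 library. All 4 calls were lost with the share of reads in no gene held constant (adjusted p 0.0538 to 0.139), and only Srxn1 stayed called in the paired WT fit. Of 22 endoplasmic reticulum stress genes Atf4 was called (0.28, adjusted p 0.036), of 21 glucose genes Ldha, lactate dehydrogenase (0.46, adjusted p 0.0113), of 22 proliferation genes Birc5, lower (-0.97, adjusted p 0.0202), and of 21 clock genes 0 by edgeR or DESeq2, with 1 higher and 1 lower at an unadjusted p under 0.05 in edgeR. Each of these shares lies below that of all genes, and the calls of Atf4, Ldha and Birc5 were lost in the paired WT fit (adjusted p 0.165, 0.0917 and 0.0907) and without replicates 2 and 3 (0.413, 0.436 and 0.0624). Of 8 bile duct genes Spp1 was called higher (0.47, adjusted p 0.0288, lost in 6 of the 10 fits without 1 library) and the keratin Krt23 lower (-2.21, adjusted p 8.21e-05), against 8.40% of all genes called in either direction. Only 2 of 11 listed pancreatic genes were tested, and Cela2a was called higher (1.21, adjusted p 0.000736), against 5.22% of all genes. It read 0.502 to 1.12 CPM in Y665H and 0.213 to 0.545 CPM in WT males, an overlap. Its call was lost without replicates 2 and 3 (adjusted p 0.0952).

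Of 23 genes of growth hormone signalling itself 2 were called, a share near the 8.40% of all genes called. Stat5b read 83.1, 102, 87.6 and 92.9 CPM in Y665H livers, inside the WT range of 81.4 to 108 CPM (-0.079, SE 0.082, adjusted p 0.604). Stat5a, its close relative, read 20.0, 23.0, 18.8 and 22.0 CPM, all above the WT range of 15.9 to 18.0 CPM, but was not called (0.28, adjusted p 0.0904). In this list 1 gene was called higher, Stat3 (0.42, adjusted p 0.0242), which carries interleukin 6 signals, and 1 lower, Igfals, which stabilises IGF1 in blood (101, 88.4, 89.2 and 90.0 CPM against 98.3 to 136 CPM; -0.32, adjusted p 0.0426). Both calls were lost without replicates 2 and 3 (adjusted p 0.541 and 0.313) and in the paired WT fit (0.136 and 0.13). Igf1 was not called (-0.34, adjusted p 0.0609), but was in 6 of 22 alternative fits, with adjusted p over all of them from 0.0247 to 0.563.

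The feedback inhibitors Socs2 (-0.11, adjusted p 0.896) and Cish (-0.59, adjusted p 0.564) and the repressor Bcl6 (-0.78, adjusted p 0.11) were not called, and all 3 varied widely among WT males. Cish ranged from 5.11 to 71.3 CPM over the 6 WT livers, and read 40.6, 6.88, 6.78 and 23.2 CPM in Y665H males. Bcl6 read 28.4, 46.5, 69.5 and 13.1 CPM against 36.2 to 95.2 CPM, lowest in replicates 1 and 4, and was called without replicates 2 and 3 (-1.71, adjusted p 0.0121).

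Among genes with different levels in the sexes the Y665H livers were not alike. Of 23 genes listed as male-biased 1 was called higher (Sult2a7, 2.16) and 3 lower (Mup12, -1.12, Cyp4a12b, -0.75, and Ugt2b38). Of 34 listed as female-biased 3 were called higher (Cyp17a1, 1.28, Abcd2, 1.51, and Tox, 0.41) and 2 lower (Cyp2c40 and Cyp2c69). The share of all genes called in either direction was 8.40%. In these livers Sult2a7 went against its listing, with means of 0.875 CPM (SD 0.230) in WT males and 5.28 CPM (SD 1.80) in WT females. Its rise in Y665H males was thus toward the WT female level. The count of female-biased genes called higher was 1 without Y665H replicate 3, 7 with only the 19 males and 5 with DESeq2. In the paired WT fit Sult2a7, Ugt2b38, Abcd2 and Cyp2c40 were still called of these 9. Without replicates 2 and 3 Sult2a7 stood at 1.21 (adjusted p 0.181), the calls of Cyp4a12b, Cyp17a1 and Cyp2c69 were lost too (adjusted p 0.268, 0.293 and 0.262), and 5 male-biased genes were called lower and 4 female-biased genes higher. The mean of the male-biased list stood -0.427 and -0.680 from the WT mean in replicates 1 and 4, and 0.348 and 0.011 in replicates 2 and 3, with WT males between -0.152 and 0.247. The female-biased list stood at 0.377 and 0.479 in replicates 1 and 4 and at -0.362 and -0.428 in replicates 2 and 3, while WT males lay between -0.172 and 0.191. Replicates 1 and 4 were thus outside the WT range for both lists, low for male-biased and high for female-biased genes. Replicates 2 and 3 were below it for the female-biased genes, and replicate 2 above it for the male-biased. Abcd2, a peroxisomal transporter, read 31.6 and 38.9 CPM in replicates 1 and 4 and 5.74 and 10.5 CPM in replicates 2 and 3, against 4.59 to 10.4 CPM in WT males (adjusted p 0.000894). Cyp2b9, a P450 of female liver, read 32.0 and 43.1 CPM against 2.11 and 3.30 CPM, with WT from 6.42 to 25.3 CPM. Selenbp2, a male-biased gene chosen after its values were seen, read 191 and 69.4 CPM in replicates 1 and 4 and 872 and 446 CPM in replicates 2 and 3, with WT from 588 to 723 CPM. Sult2a7, Mup12 and Cyp4a12b belong to families of near copies, and their counts carry that uncertainty.

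**Figure D4:**
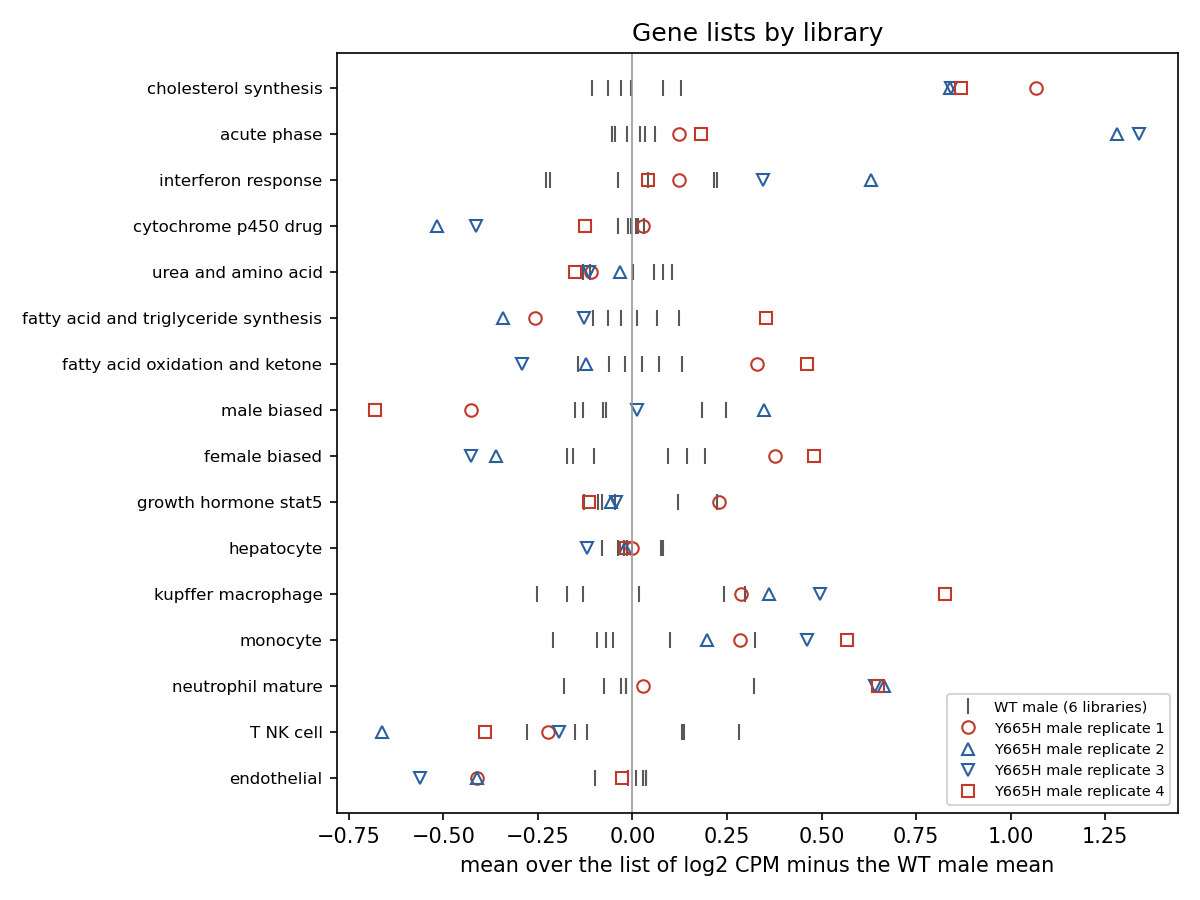
Each row is a gene list and the x axis is the mean over its tested genes of log2 CPM minus the WT male mean; ticks are the 6 WT libraries and symbols the 4 Y665H libraries. All Y665H symbols lie together to the right for cholesterol synthesis, replicates 2 and 3 alone for acute phase, and replicates 1 and 4 part from 2 and 3 for the lists of sex-biased genes.

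Whether the effect of Y665H was that seen in females was tested as the difference between the effect in males and that in females (interaction). It was called for 794 of 15152 genes (5.24%), and 380 of the 1273 genes called in males (29.9%) were among them. The interaction contains the male contrast and its livers, so overlap of the calls was favoured in advance. No conclusion is drawn from that share. In the cholesterol list 11 of 21 members were called for this difference, all larger in males, and the median male minus female effect was 1.09. For Sqle the difference was 2.93 (adjusted p 0.000337): the mean of 6 Y665H females was 121 CPM (SD 49.3) and that of 6 WT females 180 CPM (SD 73.4), both well above the 17.5 CPM ± 1.44 (SD, n = 6) of WT males. In females edgeR and DESeq2 called 0 of the 21, against 7.50% of all genes called by edgeR there, with 1 lower at an unadjusted p under 0.05, and the median was -0.19. In the acute phase list 12 of 35 members were called for the difference, with Saa2 at 6.31 (adjusted p 0.00939) and Lcn2 at 5.38 (adjusted p 0.00386). Without Y665H male replicates 2 and 3 the male effects themselves were not called, at 0.89 (adjusted p 0.756) for Saa2 and 1.06 (adjusted p 0.62) for Lcn2. At the other end of the differences stood Grm8 (-3.59, adjusted p 0.0137), Krt23 (-3.77, adjusted p 1.6e-05), Cyp2c40 (-3.20, adjusted p 0.00234) and Cyp4a12b (-2.73, adjusted p 0.0144). In WT and Y665H females Grm8 had means of 0.0699 and 0.0431 CPM, and Cyp4a12b of 0.0915 and 0.408 CPM. The female effect of Cyp4a12b was 1.97 and was not called (adjusted p 0.0532). The part of these low female levels in the differences was not tested. Krt23 fell in Y665H males and rose in Y665H females (1.57, adjusted p 0.00382), where its mean was 3.24 CPM (SD 1.19, n = 6) and that of WT females 1.09 CPM (SD 0.549, n = 6). Without Y665H male replicate 3 the difference was called for 332 genes, without replicates 2 and 3 for 251, and in the paired WT fit for 248.

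**Figure D5:**
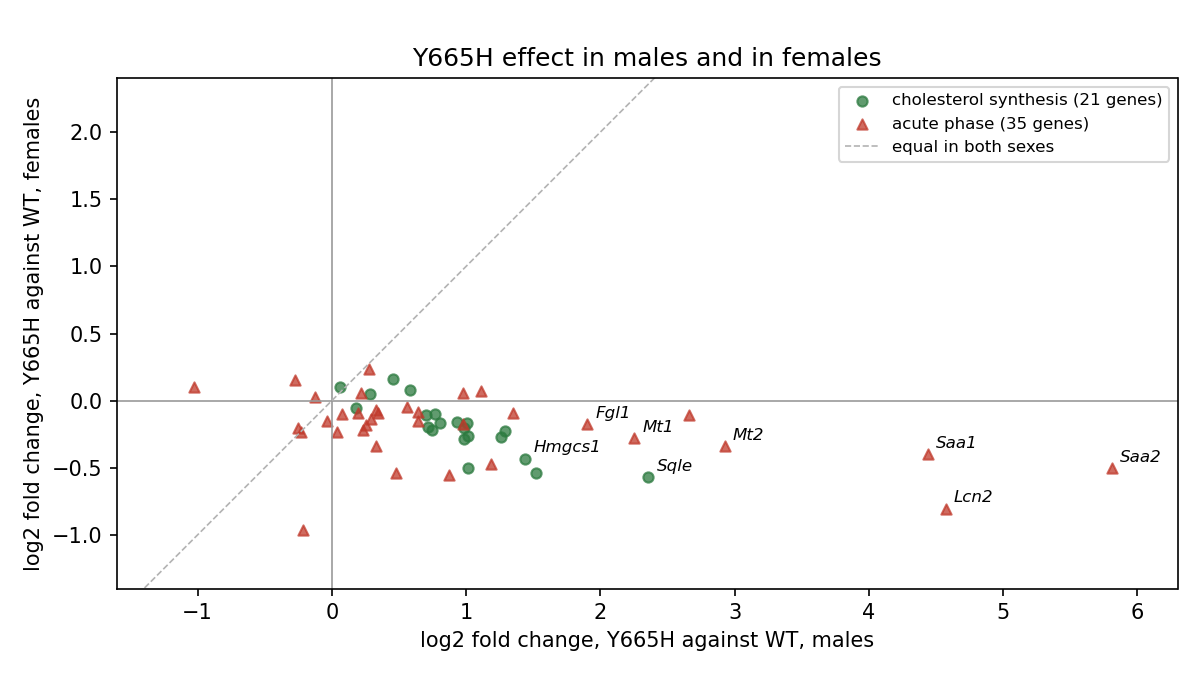
Each point is a gene of the cholesterol synthesis (circles) or acute phase (triangles) list, at its log2 fold change of Y665H against WT in males (x axis) and in females (y axis). Most lie to the right of 0 and near or below 0 on the y axis, far from the dashed line of equal change.

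The direct contrast with Y665F males gave 6319 called genes (41.7%). In the cholesterol list 2 of 21 were called, both lower in Y665H males: Mvd (-1.07, adjusted p 0.00523) and Pmvk (-0.57, adjusted p 0.0346). Sqle had a mean of 89.8 CPM in the 4 Y665H males (SD 15.2) and of 104 CPM in the 9 Y665F males (SD 41.5), a difference of -0.22 on the log2 scale that was not called (adjusted p 0.61). Against the same WT males, 20 of the 21 genes were called higher in Y665F males, where 52.5% of all genes were called, and because both contrasts share those WT livers no measure of their likeness is given.

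The 2 substitutions differed in the lists of sex-biased genes. Between Y665H and Y665F males 23 of 23 genes listed as male-biased and 32 of 34 listed as female-biased were called. Cyp4a12b, a male-biased P450, had a mean of 90.6 CPM (SD 17.7) in Y665H males, while Y665F males had 0.0453 CPM (SD 0.0302). Cyp2c40, female-biased, stood at 0.459 CPM (SD 0.416) in Y665H males, while Y665F males had 273 CPM (SD 26.3). Cyp2c40 thus lay below WT in Y665H males and above WT in Y665F males (log2 fold change of Y665F against WT 5.21, adjusted p 6.75e-14). Tff3 went the other way, with 5.55 CPM (SD 4.44) in Y665H and 0.0217 CPM (SD 0.0302) in Y665F males.

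In the acute phase list 19 of 35 were called between the substitutions, against 41.7% of all genes. Mt1 had a mean of 15.9 CPM (SD 4.43) in Y665H males and of 130 CPM (SD 52.6) in Y665F males (-3.03, adjusted p 7.64e-09). Saa2 was not called (1.51, adjusted p 0.161), with a mean of 291 CPM (SD 331) in Y665H and of 102 CPM (SD 252) in Y665F males, so the spread within each group exceeded its mean.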

How the data were processed

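Raw counts per gene were deposited by the authors, 1 file per liver. Per the submitters' processing notes the tools were FastQC 0.11.9, Trimmomatic 0.36, STAR, SAMtools 1.9, Picard 2.9.2 and HTSeq 0.9.1 on mm10; the annotation and the strand setting of the counting are not given in the sources used here, so overlapping and antisense genes cannot be told apart. Rows that name no gene were left out of library sizes.

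Genes were kept by edgeR's filterByExpr (minimum count 10, minimum total 15), which left 15152 of 24421. The 37 libraries were fitted together with 6 group means in edgeR 4.0.16 (R 4.3.3, TMM scaling, quasi-likelihood test, Benjamini-Hochberg adjustment over all genes tested, threshold 0.05). SE is the log2 fold change divided by the root of F. Every adjusted p in the text comes from this test unless DESeq2 1.42.0 or limma 3.58.1 (voom) is named. CPM are TMM-scaled, and log2 CPM use a prior count of 2. The calling step was also run on simulated counts with independent libraries. That run does not bear on the WT pairs or on the unlike Y665H livers of these data.

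Named genes are Stat5b and Stat5a, the 12 highest and 12 lowest called genes at a mean of at least 1 CPM with all 4 livers on one side, called list members, first members, a fixed panel, the 4 highest and lowest called interactions, and the 4 highest and lowest called genes of at least 100 CPM. Uncalled members that complete a list, neighbours of the Cyp2c run and Selenbp2 are named beyond this. The comparison, members, lists and rules were chosen with earlier results of these data known. Other lists gave no call in edgeR: erythroid (4 tested; unadjusted 0), stellate (13; 2 higher unadjusted) and adipose (3; 0), with 0 in DESeq2 too.

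Replicate numbers in the titles did not pair livers: deviations of same-numbered WT and Y665H males correlated at -0.131 to 0.067. The lowest chi-square per degree of freedom between WT libraries was 9.08, above sampling noise, so none was counted as a repeat, but the 3 WT pairs stood at 9.08, 12.2 and 24.88 and the other WT pairs at 33.49 to 59.29. The paired WT fit sums the counts of each pair. Promoter windows are from RefSeq on GRCm38.p6; windows of Fdps, Fdft1 and Sqle were not used here. Some list members are counted in the lists but not reported here by name. Alternatives were other libraries in the fit, tools, scaling, filters, a fold threshold, a replicate block, 2 covariates, summed WT pairs and leaving out livers.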

Additional observations from a re-analysis of the deposited data

Results flagged for a closer look

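For the 126 named genes, each library was compared with the others of its group by Dixon's test, in 252 gene and group pairs. In 17 of them 1 library lay far from the rest, and chance gives about 1 in 20 groups. Y665H replicate 1 stood high for Cyp51 (218.34 CPM), Mvd (27.744 CPM), Igfals (101.06 CPM) and Cyp2c69 (0.54372 CPM), 2 of them sterol genes. Replicate 4 stood high for Marco (18.554 CPM), Lyz2 (63.531 CPM), Cd36 (97.564 CPM) and Srxn1 (49.604 CPM) and low for Sqle (67.032 CPM). Replicate 2 was high for Txnrd1 (193.45 CPM) and low for Fdps (244.71 CPM), and replicate 3 high for Sult2a7 (8.9612 CPM) and Jchain (4.0815 CPM). Among WT males replicate 3 was high for Asns (2.652 CPM) and low for Cyp2f2 (1339.0 CPM) and Etnppl (158.34 CPM), and replicate 5 high for Ifi27l2a (2.7802 CPM).

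For 55 of the named genes the Y665H effect differed between males and females in edgeR's interaction test at an adjusted p under 0.05. Over all genes tested 5.24% were called by that test. Most named genes were chosen for their call in males and some for this test itself, so the choice favoured a high count. WT and Y665H female libraries held 25557377 to 40864173 gene counts, all below the lowest male library (49141951), and the part of depth was not tested. The values that follow are male minus female log2 effects. Among sterol and bile acid genes they were Sqle 2.9292, Mvd 2.0573, Hmgcs1 1.8742, Msmo1 1.5332, Mvk 1.5191, Idi1 1.5126, Cyp51 1.2795, Fdft1 1.2665, Nsdhl 1.1894, Hsd17b7 1.09, Srebf2 0.8272, Tmem97 0.5833, Nr1h2 0.2697 and Cyp7a1 1.9933, every one larger in males. Acute phase genes gave Saa2 6.3108, Lcn2 5.3754, Saa1 4.8378, Mt2 3.2664, Mt1 2.5292, Fgl1 2.0736, Saa3 1.6599, Cd14 1.1546, Hp 1.0381, Cebpd 1.0171 and Itih4 0.6083. Interferon and immune cell genes gave Psmb8 0.6456, Psmb9 0.6868, Tap1 0.5916, Marco 2.8672, C1qb 0.7918, C1qc 0.744, Itgam 1.2433 and Il1b 1.7147. Genes of other lists or of none with a larger male effect were Slc13a5 2.812, Cyp17a1 1.5302, Abcd2 1.6169 and Cela2a 1.4977.

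Differences below 0 came from P450, glutathione and sex-biased genes, Cyp2c40 -3.2001, Cyp2c67 -1.0359, Cyp2c68 -0.9918, Cyp3a59 -1.5225, Cyp4a12b -2.7276, Mup12 -1.5701, Gsta2 -2.3952 and Gsta4 -1.1259, and from amino acid genes, Otc -0.4986 and Gls2 -0.6952. The remaining ones were Krt23 -3.7735, Grm8 -3.5864, Zbtb16 -2.338, Slc13a2 -1.6904, Bcl6 -1.4234, Birc5 -1.4366, Etnppl -1.3348 and Hsd17b6 -1.2234. Female means of Grm8 and Cyp4a12b were under 1 CPM, as given above.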

How the results depend on the processing

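Of 2768 fold changes of the 126 named genes refitted under the alternatives, 2214 kept direction and call, 524 lost and 12 gained the call, and 18 changed sign; the cause was not tested. Genes called in males numbered 2186 with only the 10 libraries, 2012 with the 19 males, 664 with the replicate block, 543 with the share of reads outside genes held constant, 263 without Y665H replicates 2 and 3, 265 with the WT males summed in 3 pairs, 182 at a log2 fold change of 1, and 519 to 1124 when 1 library was left out; the share called higher ran from 52.2% to 68.4%. The sex difference gave 1245 genes with DESeq2, 414 with the replicate block, 1655 with that share held constant, 251 without replicates 2 and 3, 248 with the WT pairs summed, 148 at a log2 fold change of 1, and 332 to 790 without 1 library. Y665H against Y665F males gave 1256 genes at a log2 fold change of 1.

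The genes that changed sign were uncalled. Scd1 stood at -0.1034 with limma-voom, -0.0111 with the strict filter, -0.0576 with the replicate block, -0.0044 with the WT pairs summed and -0.4054 to 0.172 without 1 library. Socs2 stood at 0.132 with limma-voom, 0.0935 with the share of reads outside genes held constant and -0.2846 to 0.1974 without 1 library. Cish stood at 0.0418 with that share held constant and at 0.1168 without replicates 2 and 3. Without 1 library Insig1 ran from -0.0119 to 0.2266, Abcg5 from -0.0237 to 0.1284, Fasn from -0.1664 to 0.2718 and Cd36 from -0.1737 to 0.4473. Genes under 1 CPM rest on few reads, and the part of depth was not tested.

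Of the 113 called genes named, 56 stayed called in all 10 fits without 1 library. The call was lost in 1 fit for Cyp7a1, Mlxipl, Saa3, Cd14, Tifa, Usp18, Otc and Il1b, in 2 for Orm2, Lipc, Cyp4a12b, Cyp17a1, Lrg1, Irf7, Dhx58, Cyp2d22, Ldha, Gls2, Birc5, Itgam and Mzb1, and in 3 for Cyp2c69, Fdps and Lpin1. It was lost in 4 fits for Dhcr7, Abcb11, Stat3, Hpx, Serpina3n and C1qb, in 5 for Nr1h2, Xaf1, H2-D1, Cyp2d26, Cps1, Asns and Lyz2, and in 6 for Nr1h4, Igfals, Parp14, Gsta2 and Spp1. It was lost in 7 for Cyp26b1, Pmvk, Cebpd, Irgm1, Asl, Atf4, Gsta4, Elane, C1qc and Lck, and in 8 for Prtn3, Tox, Oas1a, Ifi27l2a and Cd2.

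Most calls were lost in at least 1 of these refits: without Y665H replicates 2 and 3, with the WT pairs summed, and with the share of reads outside genes held constant. Called in every one of them were Tff3, Mt2, Sqle, Marco, Mt1, Grm8, Cyp2c40, Ptgds, Ugt2b38, Krt23, Zbtb16, Hsd17b6, Adgrf1, Slc13a2, Mvd, Fdft1, Msmo1, Hsd17b7, Tmem97, Cyp7a1, Abcd2, Fgl1, Cyp2c68, Cyp2f2, Hal, Sds, Jchain and Etnppl. The call was lost without replicates 2 and 3 but kept in the other refits for Saa2, Lcn2, Slc13a5, Crybb3, Mvk, Sult2a7, Hp, Psmb8, Cyp2c44, Klrb1c and Cela2a. It was lost with the WT pairs summed but kept otherwise for Mup12, Tox and Sdsl, and lost with that share held constant but kept otherwise for Srxn1. It was kept only without replicates 2 and 3 for Hmgcs1, Tm7sf2, Nsdhl and Cd14, only with the WT pairs summed for Spata3, Itih4 and Psmb9, and only with that share held constant for Prtn3, Saa1, Orm2, Srebf2, Abcb11, Lipc, Igfals, Saa3, Lrg1, Tifa, Cyp2c67, Cyp2d22, Cyp2d26, Nr1i2, Otc, Asl, Gls2, Asns, Il1b and Elane. The remaining called genes named were called in none of them.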
